A study of Mus musculus with 12 samples.

Results

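The genes described here are 9 genes of the contractile, matrix-signalling fibroblast: the contractile genes Acta2, Tagln, Cnn1, Myl9, Tpm1 and Tpm2, and the secreted matricellular genes Ccn1, Ccn2 and Thbs1. Every probe set that the array annotation gave to exactly 1 of these symbols was taken, which made 17 of the 22626 non-control probe sets, for 9 of 12393 named genes. A further probe set that carries Thbs1 together with another symbol was left out. Of the 17, 15 reached the intensity filter of the test and 2, the only one of Cnn1 and the dimmer of Acta2, did not.

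Total RNA was measured on 12 arrays, 3 in each of 4 groups of mouse embryonic fibroblasts. The fibroblasts of all groups came without the gene for PPARγ, the nuclear receptor at the head of fat cell differentiation, and had been given back a receptor from outside. The S273A group carried the receptor with alanine at Ser273, a phosphorylation site, and its labels list no ligand. Cells with the wild-type receptor received 1 µM rosiglitazone for 24 h, which is a full PPARγ agonist of the thiazolidinedione class, or 1 µM MRL24 for 24 h, a further ligand of the receptor, or neither. RNA was taken after 6 days of differentiation, and the labels call the cells adipocytes. Whether untreated cells were given vehicle is not in the labels, and neither is whether replicates were separate cultures. The p-values therefore reflect array-to-array spread that may be technical only. Each receptor form was present in 1 set of cells, so an effect of the substitution and a difference between the cell populations cannot be told apart.

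Fibroblasts that take on a contractile state assemble smooth muscle actin into stress fibres together with calponin, transgelin, tropomyosin and myosin light chains, and secrete collagens and matricellular proteins. Matricellular proteins sit in the matrix and signal through integrins and other receptors rather than bear load. Transcription of these genes is known to be driven by TGF-β through SMAD factors, by SRF with its actin-sensing cofactors of the MRTF family, and by YAP and TAZ with TEAD factors, for which Ccn1 and Ccn2 are standard reporters. Fibroblasts usually lose part of this state as they become fat cells, and PPARγ agonists are known to oppose TGF-β in cultured fibroblasts.

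The markers fixed for the labelled cell type were mixed. Fabp4, a fatty acid carrier of fat cells, averaged 9701 ± 455 intensity units with S273A, 25153 ± 209 with rosiglitazone, 15339 ± 199 with MRL24 and 9509 ± 782 in untreated wild-type cells (SD, n = 3 each), while Adipoq, which encodes adiponectin, lay between 37.3 and 143 in all arrays, below the filter. Pparg itself read 929 to 1249 in S273A cells, 773 to 919 with rosiglitazone, 823 to 861 with MRL24 and 793 to 978 in untreated wild-type cells, and was not called in any comparison. Its probe set does not distinguish the receptor forms. Among markers of other cells, Myh11, the myosin heavy chain of smooth muscle, lay between 1.00 and 31.2, and Lyz2 of macrophages between 1.00 and 24.5. Other markers of these cells were not low. The filter was reached by 8 of 10 smooth muscle and pericyte markers and by 4 of 7 macrophage markers. Rgs5 of pericytes had group means from 4830 to 6800, and Cd68 of macrophages averaged 556 in untreated and 870 in S273A cells. In bulk RNA, fewer cells of a type and less RNA per cell cannot be told apart.

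One array stood apart from the others. Untreated wild-type replicate 2 scored −25.0 on the first principal component of the tested probe sets, which held 26.1% of the variance, against −7.15 to 11.7 in all other arrays. Array medians were 296.8 to 314.9 intensity units. Calls against untreated cells that rest on that array are given with it and without it.

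Log2 changes were estimated with limma on log2(intensity + 16) over 15838 probe sets, and a call needed an adjusted p under 0.05, by Benjamini-Hochberg over all of them. An exact test of 3 against 3 arrays could not give a p below 0.1. With S273A, 3 of the 15 tested probe sets were called, all lower, beside 7.71% of all tested probe sets (2.58% higher and 5.13% lower). The 3 belonged to Ccn1 and Ccn2. With rosiglitazone, 1 was called, lower, beside 9.24% of all (5.03% higher and 4.21% lower), which is no more than the background. With MRL24, 2 were called, both higher, beside 8.44% of all (5.76% higher and 2.67% lower). Between rosiglitazone and MRL24, 3 were called, all lower with rosiglitazone, beside 2.25% of all (1.27% higher and 0.979% lower), and they belonged to Ccn2 and Thbs1. Probe sets of 1 gene measure the same RNA and do not count as independent. The first 3 comparisons share the untreated wild-type arrays, and the last shares its arrays with the ligand comparisons.

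The median log2 change of the 15 probe sets was −0.11 with S273A, against −0.0036 over all tested probe sets. It was 0.0018 with rosiglitazone against 0.0036, 0.04 with MRL24 against 0.02, and −0.05 between the ligands against −0.02. With S273A 14 of the 15 log2 changes were negative, as were 51.0% of all. Every S273A array lay below every untreated wild-type array for 4 probe sets and above for 1, and 23.2% of all tested probe sets had such groups that did not overlap. For rosiglitazone this held for 1 probe set beside 26.5% of all, and for MRL24 for 3 above and 2 below beside 30.3%. Between rosiglitazone and MRL24 it held for 2 above and 4 below, beside 25.9%.

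**Figure D1:**
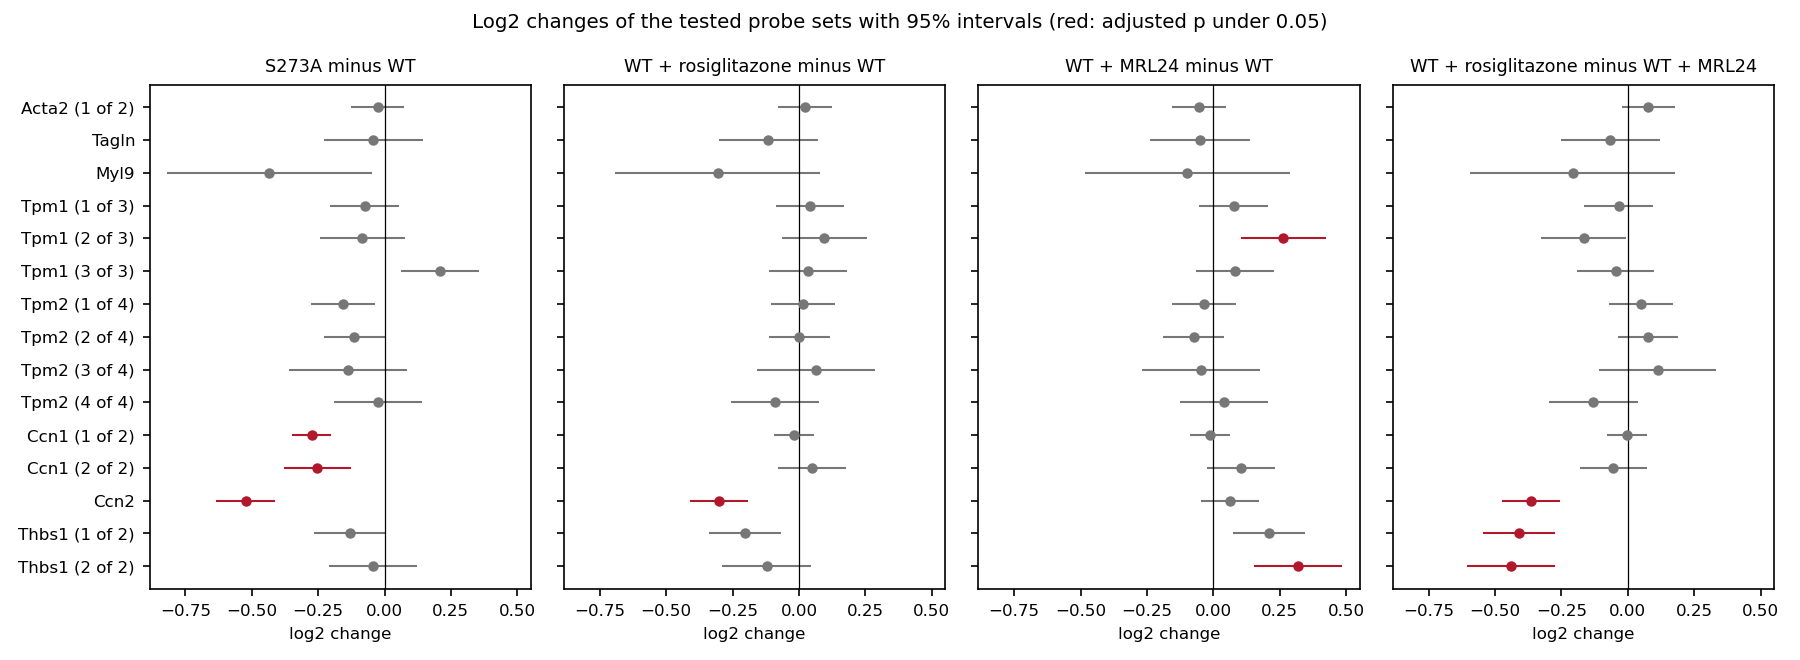
Log2 change of each tested probe set, 1 panel a comparison, with the 95% interval as a bar and adjusted p under 0.05 in red. Ccn2 lies to the left of 0 with S273A, with rosiglitazone and between the ligands, Ccn1 is called in the S273A panel, and both Thbs1 probe sets are called between the ligands.

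Ccn2, the connective tissue growth factor gene, was lower with S273A and with rosiglitazone, and was not called with MRL24. Its probe set read 1679, 1570 and 1574 intensity units in S273A cells, 1876, 1835 and 1924 with rosiglitazone, 2498, 2380 and 2386 with MRL24, and 2412, 2330 and 2211 in untreated wild-type cells. The S273A and rosiglitazone arrays lay below every untreated array and did not overlap each other, and the MRL24 arrays overlapped the untreated ones. The means were 1608 ± 61.7 with S273A, 1878 ± 44.5 with rosiglitazone, 2421 ± 66.7 with MRL24 and 2318 ± 101 in untreated wild-type cells (SD, n = 3 each).

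The log2 change of Ccn2 with S273A was −0.52 ± 0.05 (SE), a level 1.44-fold lower, with an adjusted p of 1.46e-05 by limma. Of all tested probe sets, 0.676% had a lower log2 change in that comparison. With rosiglitazone the log2 change was −0.30 ± 0.05 (adjusted p = 0.00149), 1.23-fold lower. With MRL24 it was 0.06, with a 95% interval of −0.05 to 0.17 (adjusted p = 0.466). The ligands were given at the same dose and time, and between them Ccn2 was lower with rosiglitazone, with a log2 change of −0.36 ± 0.05 (adjusted p = 0.000700). All 3 calls held in each of the 24 alternative settings, and without untreated replicate 2 the log2 changes were −0.52 with S273A and −0.30 with rosiglitazone.

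Set against S273A, in comparisons chosen after the values were seen, Ccn2 was higher with rosiglitazone by 0.22 (adjusted p = 0.0119) and with MRL24 by 0.59 (adjusted p = 7.53e-06), where 8.67% and 10.1% of all tested probe sets were called. In such comparisons receptor form and ligand differ together, so they do not give the effect of a ligand. The order from low to high was therefore S273A, rosiglitazone, and then untreated and MRL24, where the arrays of that last pair overlapped.

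Ccn1, which encodes the CCN protein also known as Cyr61, was called lower with S273A and was not called with either ligand. The brighter of its 2 probe sets read 6762, 6928 and 6826 in S273A cells, 8140, 8326 and 8060 with rosiglitazone, 8008, 8106 and 8490 with MRL24, and 8457, 8097 and 8277 in untreated cells. All S273A arrays lay below all others, and the ligand arrays overlapped the untreated ones. The log2 change with S273A was −0.27 ± 0.04 (SE, adjusted p = 0.000177), 1.21-fold lower, and the call held in every alternative setting. The identifier of the brighter probe set ends in the suffix for probes that may also match other sequences.

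The second Ccn1 probe set read 5488, 6349 and 6491 in S273A cells and 7695, 6864 and 7264 in untreated cells, again without overlap. Its log2 change was −0.25 ± 0.06 (adjusted p = 0.0157). That call was lost without S273A replicate 1, where the log2 change was −0.18 (adjusted p = 0.0618), and without untreated replicate 1, where it was −0.21 (adjusted p = 0.0618). It was also lost with only the 6 arrays compared (adjusted p = 0.0790) and with no intensity trend (adjusted p = 0.0660). With rosiglitazone the brighter probe set had a log2 change of −0.02, with a 95% interval of −0.09 to 0.06, and with MRL24 one of −0.01, with an interval of −0.09 to 0.06. Neither was called. Comparisons with S273A were again chosen after the values were seen. In them the brighter probe set was higher in wild-type cells with rosiglitazone by 0.26 (adjusted p = 0.000184) and with MRL24 by 0.26 (adjusted p = 0.000294). Receptor form and ligand differ together there, and neither ligand changed this probe set beyond the call threshold against untreated wild-type cells.

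**Figure D2:**
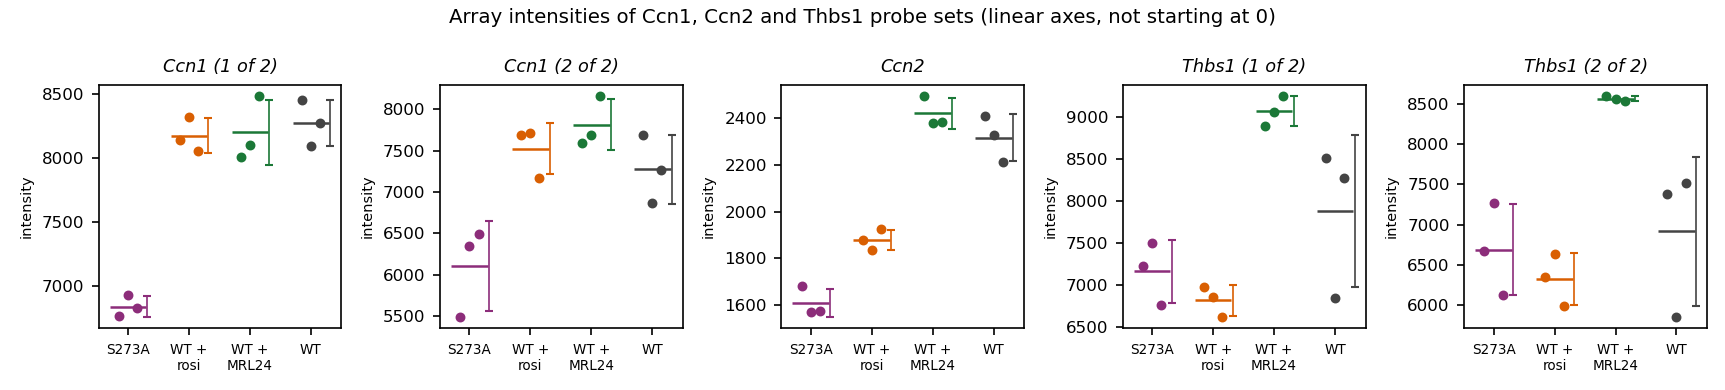
Intensity of each array for the probe sets of Ccn1, Ccn2 and Thbs1, in the order S273A, rosiglitazone, MRL24 and untreated wild-type, 1 point an array with the group mean as a bar and the SD as an error bar (numbers in brackets rank a gene's probe sets from bright to dim). The S273A points of Ccn1 lie below all other groups, and 1 untreated array of Thbs1 lies well below the other 2. Ccn2 steps up from S273A to rosiglitazone and then to the untreated and MRL24 groups, whose points overlap.

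A RefSeq promoter window was at hand for 6 of the 9 genes, Acta2, Cnn1, Myl9, Tpm1, Tpm2 and Ccn1; Tagln, Ccn2 and Thbs1 had none. The 250 bases before the start of Ccn1 are shown because it is the member with a window that was called with S273A. They lie on the minus strand at chr3:145649986-145650235 (GRCm38.p6), read in the direction of transcription. Capitals mark CATTCC, which is GGAATG, the core letters bound by TEAD factors, on the opposite strand, 103 bases before the start.
Ccn1: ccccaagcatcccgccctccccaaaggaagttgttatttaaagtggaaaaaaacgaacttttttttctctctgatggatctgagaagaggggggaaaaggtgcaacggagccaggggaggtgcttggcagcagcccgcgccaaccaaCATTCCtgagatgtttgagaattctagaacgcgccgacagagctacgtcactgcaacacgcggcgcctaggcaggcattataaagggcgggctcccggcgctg

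The same letters on either strand were in 3 of the 6 windows, and in 12.6% of all 32851 windows of 250 bases. Besides Ccn1 they were in Acta2, 146 bases before the start, at chr19:34255502-34255531 on the minus strand. They were also in Tpm1, 56 bases before the start, at chr9:67049252-67049281 on the minus strand. Each start is the one that the window of the gene precedes. The annotated spans of Acta2 and Tpm1 reach further, to 34255585 and 67049672, so both stretches lie inside those spans. The CArG box, the SRF-bound element, was searched only as CC, then 6 letters of A or T, then GG. An exact match was found in 1 of the 6 windows and in 1.47% of all. It was in Myl9, 161 bases before the start at chr2:156775293-156775322 on the plus strand. Boxes that differ from this pattern were not searched for, so a window without a match may still hold one. Stretches of 30 bases with the match in capitals follow, to set beside Ccn1 the contractile genes that carry a match and were not called with S273A.
Acta2: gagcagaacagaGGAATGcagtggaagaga
Tpm1: tggctgtcctaaGGAATGcggtcgcccccc
Myl9: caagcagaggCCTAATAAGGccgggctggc

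These matches are letters in a window and not measured sites. Cnn1 and Tpm2 had no exact match to either motif in their windows.

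Thbs1 encodes thrombospondin-1, which binds CD36 and CD47 and can release latent TGF-β. Its level was lower with rosiglitazone than with MRL24. The brighter probe set read 6973, 6853 and 6612 with rosiglitazone, 8888, 9049 and 9249 with MRL24, and 8510, 6845 and 8270 in untreated cells. The ligand groups lay far apart without overlap, and untreated replicate 2 read with the rosiglitazone arrays while the other 2 untreated arrays lay between the ligand groups. In S273A cells the probe set read 7221, 7500 and 6759.

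Between the ligands the log2 change was −0.41 ± 0.06 (SE, adjusted p = 0.00158), 1.33-fold lower with rosiglitazone, and the call held in every alternative setting. The second probe set read 6350, 6628 and 5985 with rosiglitazone and 8609, 8565 and 8543 with MRL24, a log2 change of −0.44 ± 0.08 (adjusted p = 0.00536). Over the 12 arrays the probe sets of Thbs1 had a Pearson r of 0.960, and of 0.942 after the group means were removed.

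How Thbs1 compared with untreated cells turned on untreated replicate 2. With MRL24 the second probe set was called higher, by a log2 change of 0.32 ± 0.08 (adjusted p = 0.0233), and the brighter one was not, at 0.21 ± 0.06 (adjusted p = 0.0531). Without untreated replicate 2 these were 0.20 (adjusted p = 0.0624) and 0.11 (adjusted p = 0.170), and the call was also lost without MRL24 replicate 1, 2 or 3 (adjusted p = 0.0659, 0.0716 and 0.0775). The brighter probe set was instead called without untreated replicate 1 (0.27, adjusted p = 0.0188) or 3 (0.25, adjusted p = 0.0371).

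With rosiglitazone the brighter Thbs1 probe set had a log2 change of −0.20 ± 0.06 (adjusted p = 0.0585) and the second one of −0.12 ± 0.08 (adjusted p = 0.372), and neither was called. Without untreated replicate 2 both were called lower, at −0.30 (adjusted p = 0.000260) and −0.24 (adjusted p = 0.0151). With S273A the changes were −0.13 (adjusted p = 0.239) and −0.04 (adjusted p = 0.809), and without that array the brighter probe set was called at −0.23 (adjusted p = 0.00372). Against S273A, Thbs1 was higher with MRL24 by 0.34 (adjusted p = 0.00389) and 0.36 (adjusted p = 0.00964), comparisons in which no untreated wild-type array enters the difference. Receptor form and ligand differ together in them.

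**Figure D3:**
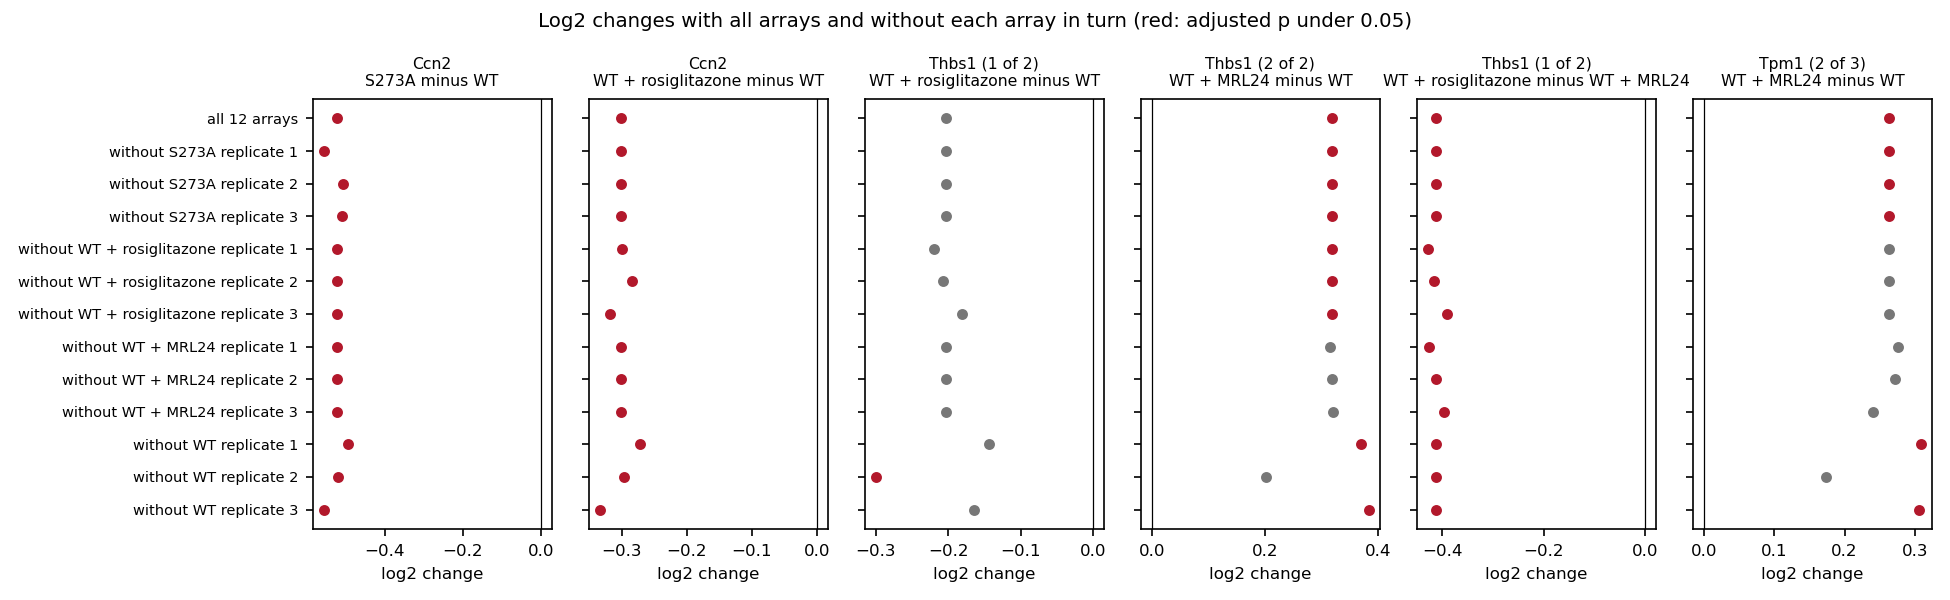
Log2 change of Ccn2, Thbs1 and Tpm1 probe sets with all 12 arrays and without each array in turn, 1 row a setting, with adjusted p under 0.05 in red. Ccn2 keeps its call in every row, as does the brighter Thbs1 probe set between the ligands, while Thbs1 and Tpm1 changes against untreated cells shift when untreated replicate 2 is left out.

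Among the contractile genes 1 probe set, of Tpm1, was called in 1 comparison, with MRL24. Acta2, the smooth muscle actin that defines the myofibroblast, read 4538, 4972 and 5063 in S273A cells, 4914, 5027 and 5122 with rosiglitazone, 4834, 4807 and 4635 with MRL24, and 4710, 5056 and 5061 in untreated cells on its brighter probe set. All S273A, ligand and untreated ranges overlapped except that every MRL24 array lay below every rosiglitazone array. The log2 changes were −0.03 with S273A (95% interval −0.13 to 0.07), 0.02 with rosiglitazone (−0.08 to 0.12), −0.05 with MRL24 (−0.15 to 0.05) and 0.08 between the ligands (−0.02 to 0.18). Together these intervals reach from −0.15 to 0.18. The identifier of this probe set ends in the suffix for probes shared by several transcripts, and the probe sets of the other muscle actins Acta1 (1.19 to 53.6), Actc1 (47.9 to 88.6) and Actg2 (41.9 to 105) were below the filter. The second Acta2 probe set was below it too, at 40.05, 56.32 and 49.98 in S273A cells and 60.03, 59.31 and 75.66 in untreated cells. Those groups did not overlap, and with no filter its log2 change was −0.32 (adjusted p = 0.381).

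Tagln, the actin-binding protein transgelin, read 1522, 1502 and 1548 in S273A cells, 1473, 1467 and 1404 with rosiglitazone, 1603, 1615 and 1344 with MRL24, and 1714, 1699 and 1328 in untreated cells. The untreated arrays alone spanned more than the S273A and rosiglitazone groups. Its log2 changes were −0.04 with S273A, −0.12 with rosiglitazone, −0.05 with MRL24 and −0.07 between the ligands, with adjusted p from 0.464 to 0.836. Cnn1, calponin, which holds back the actin-activated myosin ATPase, read 14.5 to 56.4 over all arrays and was not tested.

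Myl9, the regulatory light chain of smooth muscle and nonmuscle myosin, lay close above the filter, and its arrays read 122, 75.3 and 93.3 in S273A cells and 159, 127 and 120 in untreated cells. The groups overlapped. Its log2 change of −0.43 ± 0.18 with S273A (adjusted p = 0.169) was the second in size after Ccn2 among these genes and had the widest 95% interval of that comparison, −0.82 to −0.05. With rosiglitazone it had a log2 change of −0.31 (adjusted p = 0.326) and with MRL24 one of −0.10 (adjusted p = 0.779).

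**Figure D4:**
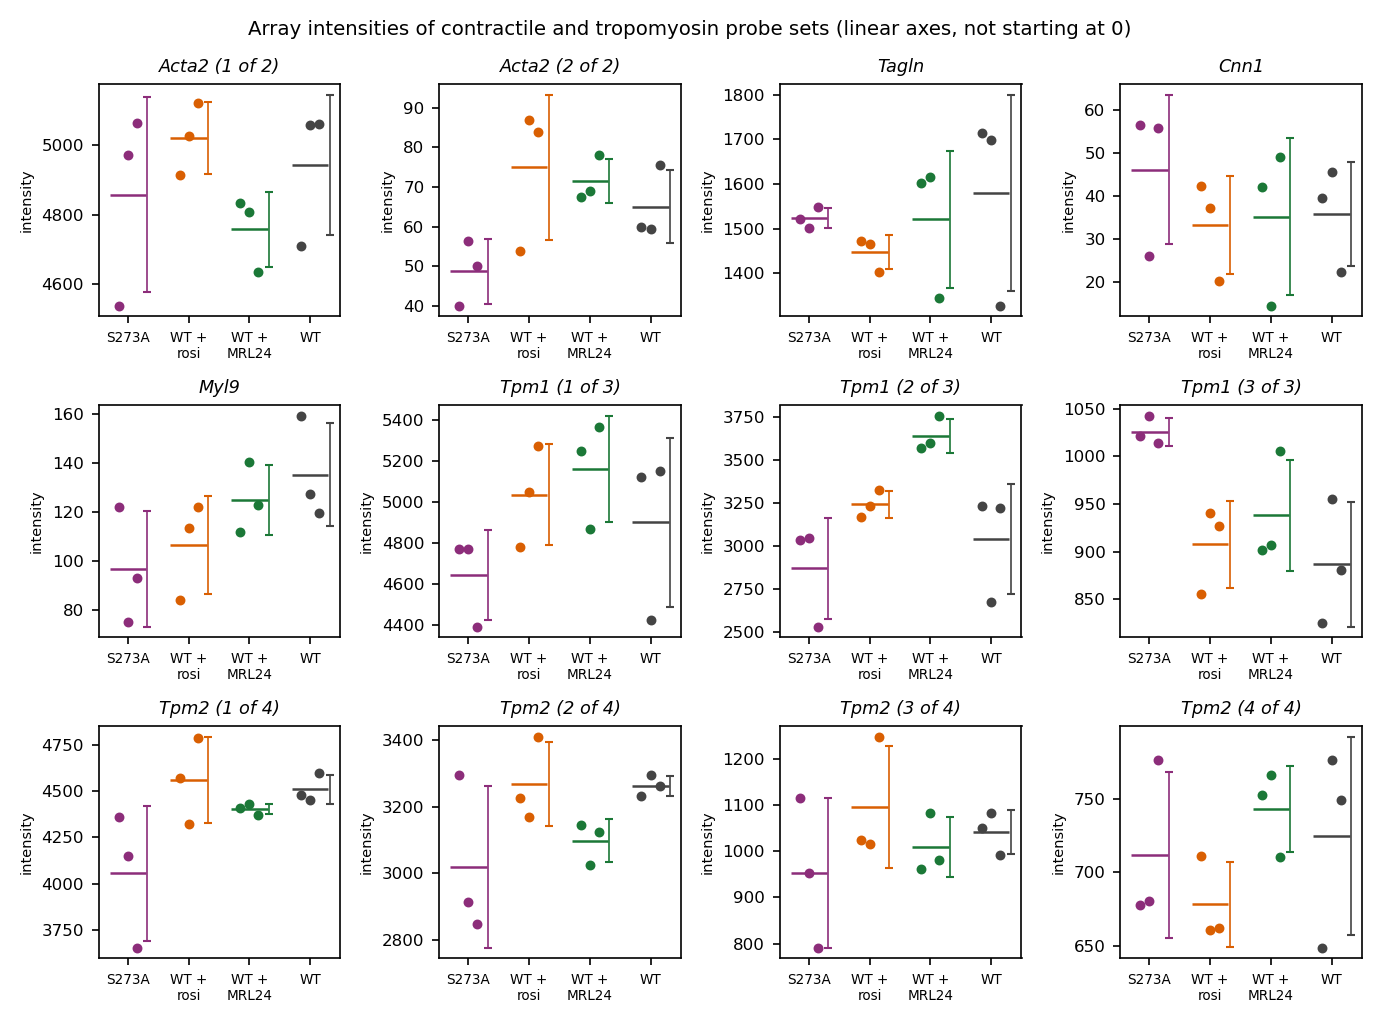
Intensity of each array for the probe sets of the 6 contractile genes, in the order S273A, rosiglitazone, MRL24 and untreated wild-type, 1 point an array with the group mean as a bar and the SD as an error bar (numbers in brackets rank a gene's probe sets from bright to dim). Most groups overlap, Cnn1 and the dimmer Acta2 probe set stay at the low end of their arrays, at 14.5 to 56.4 and 40.0 to 86.9, and 1 Tpm1 probe set is highest with MRL24.

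The tropomyosins Tpm1 and Tpm2 run along actin filaments and set myosin access. Tpm1 had 3 probe sets, and only the second brightest was called, in 1 comparison. That probe set read 3037, 3044 and 2531 in S273A cells, 3168, 3231 and 3322 with rosiglitazone, 3570, 3595 and 3754 with MRL24, and 3231, 2674 and 3220 in untreated cells. The MRL24 arrays lay above all others, and untreated replicate 2 read low, as it did for Thbs1. Its log2 change with MRL24 was 0.26 ± 0.08 (adjusted p = 0.0425), and without untreated replicate 2 it was 0.17 (adjusted p = 0.166). The call was also lost without any 1 of the 3 MRL24 arrays (adjusted p = 0.0854, 0.105 and 0.149) or any 1 of the 3 rosiglitazone arrays (0.0550, 0.0564 and 0.0531). Against S273A cells, where the receptor form differs too, this probe set was higher with MRL24 by 0.35 (adjusted p = 0.00978).

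The probe sets of Tpm1 did not move together. The brightest had a log2 change of −0.07 with S273A, 0.04 with rosiglitazone and 0.08 with MRL24, none called, and followed the second over the 12 arrays (r = 0.870). The dimmest ran the other way in S273A cells, at 1021, 1042 and 1014 against 824, 955 and 880 in untreated cells, without overlap. Its log2 change of 0.21 ± 0.07 was not called (adjusted p = 0.0775), and without untreated replicate 2 it was called at 0.26 (adjusted p = 0.0298). Its r with the other Tpm1 probe sets was −0.35 and −0.31. Which transcripts each probe set reads is not given in the files.

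Tpm2 had 4 probe sets and no call. The brightest read 4361, 4152 and 3654 in S273A cells and 4479, 4449 and 4598 in untreated cells, without overlap. With S273A their log2 changes were −0.16 (adjusted p = 0.111), −0.11 (0.228), −0.14 (0.479) and −0.02 (0.899) from the brightest to the dimmest. Without S273A replicate 1 the 2 brightest were called lower, at −0.21 (adjusted p = 0.0434) and −0.18 (adjusted p = 0.0454). With the ligands the 4 ranged from −0.09 to 0.07 for rosiglitazone and from −0.07 to 0.04 for MRL24.

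Over the 12 arrays, the probe set of another gene most like each member's brightest by Pearson r of log2 intensity was Strn3 for Ccn1 (0.977), Usp9x for Ccn2 (0.965), Thbs2 for Thbs1 (0.965), Dusp3 for Tpm2 (0.946), Chd4 for Tpm1 (0.934), Crebzf for Acta2 (0.882), Exosc7 for Tagln (0.859) and Myl9's was Brd1 (0.854). These are the highest among all tested probe sets of other genes that carry a single symbol, and they carry no test. Between members, Ccn1 and Ccn2 had r = 0.789 over the arrays and −0.31 within groups, so their likeness came from the group means. The brighter Thbs1 probe set and the second Tpm1 probe set had 0.720 and 0.855, so they also varied together within groups. Untreated replicate 2 read low for both, and r without that array was not computed.

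The related pathway genes are described by their brightest tested probe set, and genes named below kept their call in each of the 22 settings that test single probe sets unless a loss is given. The list counts stand beside 7.71% of all tested probe sets called with S273A, 9.24% with rosiglitazone, 8.44% with MRL24 and 2.25% between the ligands. Without untreated replicate 2, the calls among all 15838 probe sets were 1121, 1087, 493 and 865 in that order. No test over a list was run. Among the 22 other contractile and actin cytoskeleton genes tested, 0 were called higher and 1 lower with S273A, 3 higher with rosiglitazone, 3 higher with MRL24 and 0 between the ligands. The list medians were −0.0085, 0.08, 0.06 and −0.02. Without untreated replicate 2, rosiglitazone had 2 higher and 1 lower and MRL24 had 2 higher. The smoothelin gene Smtn lost its call with both ligands there (adjusted p = 0.128 with rosiglitazone and 0.114 with MRL24). Over all settings its call was lost in 13 of 22 with rosiglitazone and in 8 of 22 with MRL24. The 1 lower with S273A was Vcl, the adhesion protein vinculin (log2 change −0.21, adjusted p = 0.0121), whose other probe set had a log2 change of 0.17 and whose call was lost with only the 6 arrays compared and with no intensity trend. With MRL24, Actn1, the cross-linking protein α-actinin, was higher by 0.33 (adjusted p = 0.00854), although its other probe sets ranged from −0.02 to 0.37.

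Of 19 TGF-β ligands, receptors and targets, 2 were higher and 2 lower with S273A, 1 higher and 3 lower with rosiglitazone, 4 higher with MRL24, and 4 lower with rosiglitazone than with MRL24. The medians were 0.0056, −0.05, 0.03 and −0.08. Without untreated replicate 2, S273A had 2 higher and 3 lower, and MRL24 had 3 higher, having lost the TGF-β signal mediator Smad3 (adjusted p = 0.104). Smad7, the inhibitory SMAD that TGF-β itself induces, was lower with S273A, with a log2 change of −0.28 (adjusted p = 0.00472). The other gene lower with S273A was Ltbp2, at −0.21 (adjusted p = 0.00670, lost with only the 6 arrays compared). The ligand gene Tgfb1 was higher with both ligands of the receptor, by 0.34 with rosiglitazone (adjusted p = 0.00325) and by 0.31 with MRL24 (adjusted p = 0.0110, lost with only the 6 arrays compared). With rosiglitazone Tgfbi, a secreted TGF-β target, was lower at −0.31 (adjusted p = 2.67e-05) and the corepressor Tgif1 lower at −0.22 (adjusted p = 0.00291). With S273A these were the 2 called higher. Tgif1 was higher by 0.17 (adjusted p = 0.0182, lost in 3 of 22 settings) and Tgfbi by 0.13 (adjusted p = 0.0360, lost in 12 of 22). Ltbp1, which tethers latent TGF-β to the matrix, was higher with MRL24 by 0.28 (adjusted p = 0.00912), and lower with rosiglitazone than with MRL24, at −0.33 (adjusted p = 0.00331).

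Of 11 SRF and MRTF factors and immediate-early targets, 2 were lower with S273A, 2 lower with rosiglitazone and 0 with MRL24 or between the ligands, with medians of 0.0012, 0.08, 0.08 and −0.02. Both S273A genes were immediate-early zinc finger factors, Egr2 at −0.69 (adjusted p = 0.000376) and Egr1 at −0.29 (adjusted p = 0.00114). The same genes were the 2 called with rosiglitazone, Egr2 at −0.33 (adjusted p = 0.0404) and Egr1 at −0.16 (adjusted p = 0.0436), and those calls were lost in 10 and 12 of 22 settings, among them without untreated replicate 2 (adjusted p = 0.109 and 0.119). Without that array the list had 1 higher and 2 lower with S273A and 0 called with rosiglitazone, and its medians with rosiglitazone and MRL24 were −0.03 and −0.05. Srf itself had a log2 change of 0.18 with S273A, 0.12 with rosiglitazone and 0.23 with MRL24, none called.

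Of 20 YAP, TAZ and TEAD pathway genes, 3 were lower with S273A, 0 were called with rosiglitazone, 2 were higher with MRL24 and 1 was lower with rosiglitazone than with MRL24. The medians were 0.02, 0.03, 0.14 and −0.08. The 2 higher with MRL24 were the kinase gene Lats1 (log2 change 0.46, adjusted p = 0.0496) and F3, which encodes tissue factor (0.27, adjusted p = 0.0390), and those calls were lost in 16 of 21 and 10 of 22 settings. With untreated replicate 2 left out, neither was called (adjusted p = 0.206 and 0.0537), so the count with MRL24 was 0, and it was 2 lower with S273A and 1 lower with rosiglitazone. With S273A, Ajuba, a LIM protein that binds LATS kinases, had a log2 change of −0.45 (adjusted p = 0.00583) and Amotl2, an angiomotin that binds YAP, one of −0.39 (adjusted p = 0.00255). Yap1 had a log2 change of −0.16 (adjusted p = 0.141) and Ankrd1, another reporter of YAP, one of −0.23 (adjusted p = 0.146) with S273A, and neither was called.

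Among 6 other CCN and thrombospondin genes, 0 were called with S273A or rosiglitazone. Thbs2 was higher with MRL24 by 0.19 (adjusted p = 0.0170), a call lost without MRL24 replicate 2 (0.0611) or 3 (0.0728), with only the 6 arrays compared and with no trend, and lower with rosiglitazone than with MRL24, at −0.19 (adjusted p = 0.0308), a call lost without any 1 of the ligand arrays (0.0760 to 0.133), with no filter, with no trend and with the replicate block. Among the 13 receptors of these proteins, 1 was higher and 2 lower with S273A, 3 higher with rosiglitazone, 3 higher with MRL24 and 1 higher with rosiglitazone than with MRL24. The 2 lower with S273A were integrin genes. Itga6 had a log2 change of −0.23 (adjusted p = 0.00784, lost with only the 6 arrays compared). Itgav had one of −0.14 (adjusted p = 0.0342, lost in 9 of 22 settings), and its other probe sets had 0.17 and 0.31. Cd36, a thrombospondin-1 receptor and fatty acid transporter that is also a PPARγ target, was 1.77-fold higher with S273A (adjusted p = 1.46e-05), 8.02-fold with rosiglitazone (adjusted p = 7.24e-13) and 2.38-fold with MRL24 (adjusted p = 4.79e-07). The integrin genes Itgb3 and Itgb1 were higher with both ligands. Itgb3 was higher by 0.47 with rosiglitazone (adjusted p = 0.00853, lost without rosiglitazone replicate 2 at 0.0577) and by 0.56 with MRL24 (adjusted p = 0.00609). Itgb1 was higher by 0.22 with rosiglitazone (adjusted p = 0.00673, lost with only the 6 arrays compared) and by 0.25 with MRL24 (adjusted p = 0.00603). With untreated replicate 2 left out, 1 receptor gene was higher and 4 were lower with S273A.

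Of 10 matrix genes of the myofibroblast, 5 were lower with S273A, 0 were called with either ligand against untreated cells, and 1 was lower with rosiglitazone than with MRL24, with medians of −0.11, 0.03, 0.11 and −0.10. There were 6 lower with S273A and 1 with rosiglitazone without untreated replicate 2. Postn, the matricellular protein periostin, had a log2 change of −0.69 (adjusted p = 0.000106) with S273A, Col1a2 one of −0.38 (adjusted p = 0.00131) and Col3a1 one of −0.36 (adjusted p = 4.25e-05).

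**Figure D5:**
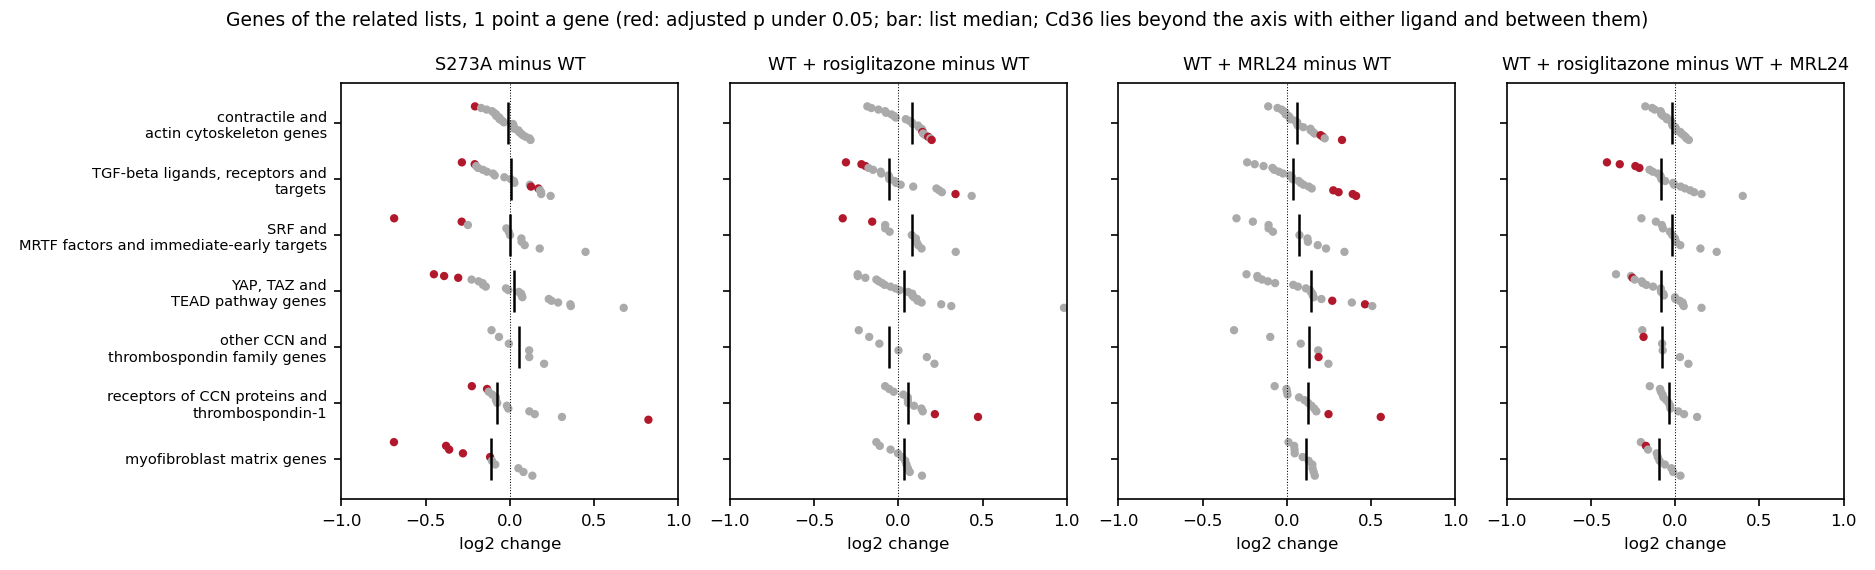
Log2 change of each tested gene of the related lists, 1 point a gene and 1 panel a comparison, with adjusted p under 0.05 in red and the list median as a bar. With S273A the called matrix genes all lie to the left of 0; Cd36 lies beyond the axis with either ligand and between the ligands.

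Markers of other cell types moved with some of these results. The summed level of the smooth muscle and pericyte markers, of which 8 of 10 were tested, was 13153 to 13554 in S273A cells, 12766 to 13118 with rosiglitazone, 14064 to 14817 with MRL24 and 14011 to 14611 in untreated cells. The sum followed Rgs5, a pericyte marker that averaged 6065 ± 99.0 in S273A cells, 4830 ± 74.7 with rosiglitazone, 6336 ± 106 with MRL24 and 6800 ± 298 in untreated cells (SD, n = 3 each). With rosiglitazone Rgs5 was lower, with a log2 change of −0.49 (adjusted p = 8.99e-07), and its 3 other probe sets were lower too (−0.45 to −0.22). The list median with rosiglitazone was 0.07, and 1 other marker, Smtn, was called higher (log2 change 0.20, adjusted p = 0.0395, lost in 13 of 22 settings). With S273A the brightest Rgs5 probe set had a log2 change of −0.16 (adjusted p = 0.0172), and its 3 other probe sets lay between −0.03 and 0.04, none called. That call was lost without S273A replicate 3 (adjusted p = 0.0673), with only the 6 arrays compared and with no trend. Of the 8 tested markers, 2 were called lower with S273A and 0 higher. The other one lower was Pdgfrb, at −0.31 (adjusted p = 0.00502), and its second probe set was also called lower, at −0.35. The Pdgfrb call was lost with only the 6 arrays compared. Sums over the 7 macrophage markers on the array (4 tested) were 3593 to 3682 in S273A cells and 2856 to 3319 in untreated cells. Cd68 was higher with S273A by 0.63 (adjusted p = 5.07e-05). Of the fat cell markers, 11 were on the array and 9 were tested. Sums over the 11 were 15205 to 16303 with S273A, 33765 to 34233 with rosiglitazone, 21489 to 21746 with MRL24 and 14098 to 15967 untreated. With rosiglitazone 5 of the 9 tested were higher, with MRL24 3, and with S273A only Cd36. The part of these markers in the Ccn1, Ccn2 and Thbs1 results was not tested.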

How the data were processed

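The authors deposited 1 table of array intensity values on a linear scale, already normalized. The sources used here do not name the method. All 12 arrays were used and no array was dropped or imputed. Of 22690 probe sets, 64 were controls. Probe sets were named from the platform's annotation, which can be old: 20380 carried 1 symbol, 691 several and 1555 none. Probe sets had to reach a mean at the 30th percentile (101 intensity units), which kept 15838. The pseudocount of 16 on the log2 scale makes changes of dim probe sets look smaller.

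One limma model (version 3.58.1, R 4.3.3; lmFit, eBayes with trend) covered all arrays, with 8 residual and 7.76 prior degrees of freedom, and Benjamini-Hochberg adjustment over all tested probe sets. The 95% intervals are not adjusted. In simulated data, tested for S273A against untreated cells with 50 changed probe sets per size among 15838, limma called 18% of log2 changes of 0.25, 78% of 0.5 and 100% of 1.

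The members and the lists were chosen with earlier results of these data known. All members are named. Of each list up to 4 called genes by size of change may be named per comparison; fewer are, partly picked for keeping their calls, and uncalled or further genes were picked after their values were seen. Alternatives were the pseudocount, filter, normalization, probe set rule, 6 arrays only, no trend, array weights, a replicate block and each array left out; contrasts against S273A and list counts without untreated replicate 2 were added after seeing the data. Promoter windows are RefSeq, GRCm38.p6. The files name no genome build.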

Additional observations from a re-analysis of the deposited data

How the results depend on the processing

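Of 1376 recomputed results of single probe sets, 1335 kept their side of the threshold, 25 lost a call, 16 gained one and 0 called changes reversed, and 48 of the 60 results kept their side in each setting they were run in (24 for 28 results and 22 for 32). Member calls with S273A (3) became 5 with array weights, 2 with only the 6 arrays compared or no trend, and 2 to 5 without single arrays. Those with rosiglitazone (1) became 2 under the 50th percentile filter, equal medians or array weights and 1 to 3 without single arrays. Those with MRL24 (2) became 0 with no filter, the 6 arrays compared or no trend, 1 with the gene mean, equal medians, array weights or the replicate block, and 0 to 3 without single arrays. The 3 between the ligands stayed 3 without single arrays. Over all probe sets, the 1221 calls with S273A became 675 with 1 probe set per gene, 622 with the gene mean, 415 with the 6 arrays compared and 723 to 1227 without single arrays. The 1463 with rosiglitazone became 739, 762, 734 and 752 to 1611 in the same settings. The 1336 with MRL24 became 508, 513, 415 and 322 to 1784, and 727 with no filter and 708 with no trend. The 356 between the ligands became 231 with 1 probe set per gene, 1006 with the 6 arrays compared, 210 with no trend, 1105 with array weights and 160 to 865 without single arrays. The gene-level settings test fewer features, 8675, and the 6-array settings have fewer samples; otherwise the cause was not tested. With rosiglitazone 54.5% of calls were higher, but 44.8% with equal medians. With MRL24 68.3% of calls were higher, but 43.1% with equal medians and 55.7% with quantile normalization. Between the ligands 56.5% were higher with rosiglitazone, but 68.3% with equal medians. The dimmer Thbs1 probe set lost its call between the ligands with no trend (adjusted p = 0.0506). The replicate numbers did not pair the arrays (r of deviations −0.12 to 0.12, and 2 of 12 arrays closest to their own number). With the replicate block the calls were 1017, 1239, 1059 and 280, and member calls 3, 1, 1 and 3, in the order S273A, rosiglitazone, MRL24 and between the ligands. Precision is limited by 3 arrays per group, and dim probe sets such as Myl9 had the widest intervals.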
